A study of Nannospalax ehrenbergi and Mus musculus with 14 samples.

Results

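The 4 libraries described here are the uninjected sides (UIS) of 4 tumor-bearing *Spalax*, the blind mole rat, out of 14 microRNA libraries in the series. They are all the UIS libraries of *Spalax* that were sequenced for microRNA in the samples at hand, and they fall into 2 groups of 2 by the tumor that the same animal carried on the other side of the neck. Animals Sp600 and Sp976 bore a granuloma, which is benign, and were operated on 14 and 16 months after treatment. Animals Sp2240 and Sp2230 bore a fibrosarcoma, which is malignant, and were operated on at 18 and 30 months.

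All 4 animals were wild-caught and had been given 1 mg of the carcinogen 3-methylcholanthrene (3MCA) in 500 µl, once and under the skin of the left neck flank. The colony's ages ran from about 2 to over 10 years, and the age of each animal is not given. Animals Sp600, Sp976 and Sp2240 were females and animal Sp2230 was a male. The UIS is therefore muscle of a treated animal with a tumor, taken opposite the injection, and not muscle of an untreated one, which is not analysed here. Tumor type cannot be told apart from the months since injection, because both fibrosarcoma-bearing animals were sampled later than both granuloma-bearing ones, nor in animal Sp2230 from sex.

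MicroRNAs are short RNAs cut from a hairpin precursor, whose 5p and 3p arms can each be loaded into a silencing complex that lowers the output of target messenger RNAs. Skeletal muscle is marked by a small set of them. MiR-1, miR-133 and miR-206 control muscle differentiation, and they are joined by miR-499 and miR-208b, which lie inside myosin genes and go with slow fibres. Other microRNAs mark the cells that a piece of muscle also holds, such as miR-451a in red cells, miR-223 in myeloid cells, miR-126 in endothelium and miR-199 and miR-214 in fibroblasts.

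The 4 libraries held from 11557482 to 13046355 microRNA reads. Of the 1326 mouse microRNA names in the table, 463 had at least 1 read in all 4 libraries, 334 had at least 10 and 102 had at least 1000, while 708 had none in any. The smallest share that 3 reads can show lay between 2.30e-05% and 2.60e-05% of a library, which covers counting error only, since the reads carry no molecular identifiers. In what follows a normalised count is the deposited value, a read count divided by the library's size factor, and 1 read was worth from 1.08 to 1.42 normalised counts.

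The hairpins of 6 mouse microRNA genes are shown because the results below turn on their products or close relatives. Sequences are from GENCODE M21 on the mouse build GRCm38, and the *Spalax* loci are not analysed here. The first 3 belong to the family of miR-363, whose 3p arm gave one of the largest differences between the groups, and the capitals mark the longest run of bases, 7 letters, that a search found in Mir363, Mir92-1, Mir92-2 and Mir25 alike.
Mir363: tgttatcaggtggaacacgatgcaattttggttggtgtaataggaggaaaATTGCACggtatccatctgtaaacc
Mir92-1: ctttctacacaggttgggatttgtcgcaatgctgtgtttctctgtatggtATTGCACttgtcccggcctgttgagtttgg
Mir25: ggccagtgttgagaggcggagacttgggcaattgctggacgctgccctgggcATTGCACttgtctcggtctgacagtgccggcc
Mir363 lies at chrX:52741693-52741767 on the minus strand, outside any other annotated gene. Mir92-1 lies at chr14:115044427-115044506 on the plus strand in an exon of the long non-coding Mir17hg, and Mir25 at chr5:138165321-138165404 on the minus strand within Mcm7.

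Mir20b lies 345 bases from Mir363 on the same strand, at chrX:52742113-52742192, and is shown because its 5p arm stood in the same order across the animals. The capitals mark the 10 letters it shares with Mir20a, Mir17, Mir106a and Mir93.
Mir20b: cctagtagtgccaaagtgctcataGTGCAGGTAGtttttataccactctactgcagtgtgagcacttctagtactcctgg

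Mir208b and Mir499 are shown because they set animal Sp976 apart. Mir208b lies at chr14:54975700-54975776 in an intron of Myh7, a slow myosin heavy chain gene, and Mir499 at chr2:155622880-155622958 in an intron of Myh7b, each on the strand of its host. The capitals mark the 2 longest runs of 6 letters that both hold, which stand in the opposite order in the 2 hairpins.
Mir208b: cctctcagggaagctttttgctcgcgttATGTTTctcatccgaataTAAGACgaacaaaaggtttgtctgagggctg
Mir499: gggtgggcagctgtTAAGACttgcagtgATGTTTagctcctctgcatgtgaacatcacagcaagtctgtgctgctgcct

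The UIS of all 4 animals was dominated by the same few microRNAs. MiR-133a-3p, the leading muscle microRNA, alone held 34.8% of the reads in animal Sp600, 33.5% in Sp976, 34.5% in Sp2240 and 33.2% in Sp2230, a mean of 34.0% ± 0.757 (SD, n = 4). The animals differed by less than 1.05-fold in this share, which made it the steadiest of the 20 leading microRNAs by share of reads. From 2 to 3 microRNAs made up the first 50% of each library, 22 to 24 made up 90%, and the top 10 held between 76.8% and 80.1%.

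MiR-22-3p, a microRNA abundant in striated muscle, came second with 13.7%, 17.0%, 15.4% and 12.2% in animals Sp600, Sp976, Sp2240 and Sp2230. MiR-26a-5p, which favours muscle differentiation, came next with 9.21%, 10.8%, 9.39% and 10.4%. MiR-378a-3p, made from an intron of a gene of mitochondrial metabolism, held 5.47%, 3.51%, 4.37% and 5.13%. As shares of reads, the granuloma-bearing and fibrosarcoma-bearing animals overlapped in all 3. In normalised counts, the scale of the tests below, miR-133a-3p, miR-22-3p and miR-26a-5p each lay below in both fibrosarcoma-bearing animals, with miR-133a-3p at 5702420, 5264000, 4842160 and 4712650 and a log2 difference of -0.20 (95% interval -0.43 to 0.04; limma, adjusted p = 0.633). The separation of the groups in these microRNAs thus depended on the scale. After them came miR-27b-3p with a mean of 3.54%, miR-10b-5p with 2.97%, let-7f-5p with 2.68% and miR-143-3p with 1.98%, and the last of the 20, miR-191-5p, held 0.604%.

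Both names of miR-486-5p, a microRNA of muscle and red cells, carried identical values, and each was listed at 1.63% ± 0.428 (SD, n = 4). The table held 8 tested names with values identical to another name over these 4 libraries, so that these reads were counted under each. MiR-1a-3p ranked only 14th, at 1.89%, 1.09%, 1.25% and 1.32%, although miR-1 and miR-133a are made from shared transcripts and miR-1 is a defining muscle microRNA. How evenly the libraries captured different microRNAs was not tested.

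Of the 20 leading microRNAs, 17 were in the top 20 of every animal. As shares of reads, the coefficient of variation of the 20 over the 4 animals ran from 2.23% for miR-133a-3p to 26.3% for miR-486a-5p, with a median of 13.6%. None differed more than 1.72-fold in share between its highest and lowest animal.

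**Figure D1:**
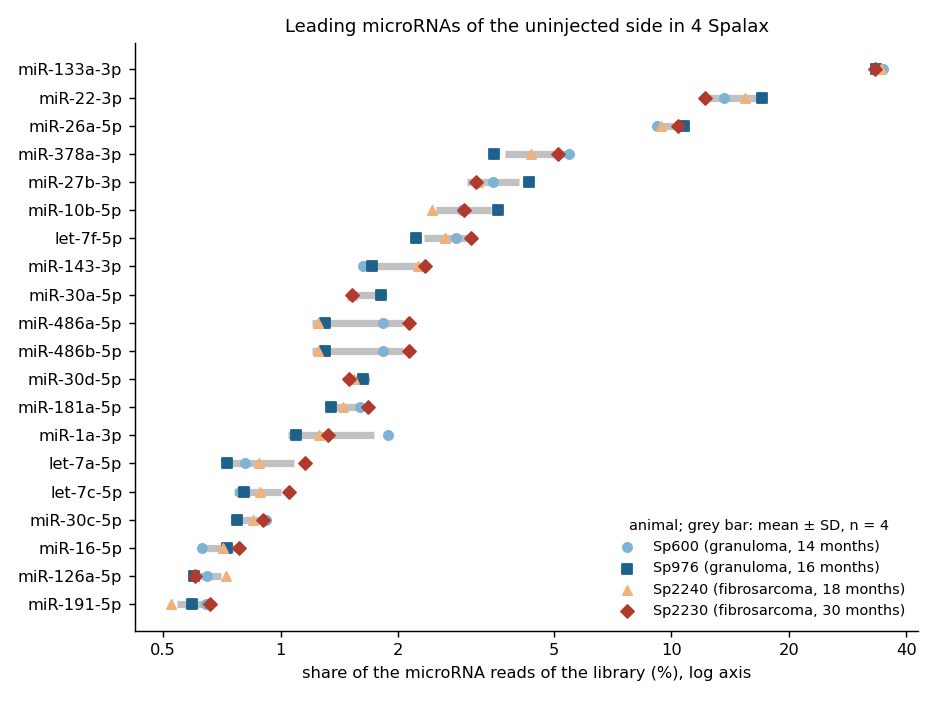
Share of the microRNA reads (%, log axis) of the 20 leading microRNAs in the uninjected side of each of the 4 animals; points are libraries and grey bars are the mean ± SD over 4 animals. The 4 points lie close together for miR-133a-3p, at 33.2% to 34.8%, and farther apart for miR-486a-5p and miR-1a-3p, and neither group of animals stands on one side throughout.

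Grouped by name into families, miR-133 held 34.5% ± 0.790 of the reads (SD, n = 4), miR-26 10.2% ± 0.793, let-7 with miR-98 5.87% ± 0.786, miR-378 5.58% ± 1.03, miR-30 5.02% ± 0.233, miR-27 3.67% ± 0.546 and miR-10 3.32% ± 0.413. The 11 names of miR-30, summed, varied by 1.11-fold between animals. The miR-199 names, which mark fibroblasts, varied most among the families summed, by 2.58-fold.

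The markers fitted the label of skeletal muscle. The list of muscle microRNAs, slow-fibre members included, held 37.3%, 35.3%, 36.5% and 35.2% of the reads in animals Sp600, Sp976, Sp2240 and Sp2230. As shares the groups overlapped, and the fibrosarcoma-bearing mean was lower by -0.436 percentage points as a signed difference (exact permutation test, two-sided, p = 0.667, where 2 against 2 animals cannot go below 0.333). The sign of this small difference turned to 0.581 without animal Sp600 and to 0.209 without animal Sp2230. In normalised counts the sums of the list did not overlap, with at least 5549550 in the granuloma-bearing and at most 5131820 in the fibrosarcoma-bearing animals. On this scale the totals over all microRNAs were likewise lower in both fibrosarcoma-bearing animals, so the separation was not particular to the list. Its tested names had a median log2 difference of -0.14, against -0.10 over all tested.

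The cardiac microRNA miR-208a-3p had 3, 5, 0 and 0 reads, so heart muscle was at or near the floor. Of 13 epithelial and skin names, 4 had no read at all, and the list's defining member miR-200a-3p had 2, 2, 7 and 2 reads. The skin microRNAs miR-203-3p and miR-205-5p had from 17 to 69 and from 5 to 29 reads. The neuronal miR-124-3p had 6, 12, 15 and 30 reads, and the endocrine miR-375-3p had 46, 32, 86 and 54. Other names of the neural list had more reads: miR-9-5p, of neural progenitors, had 636 to 1026, miR-7a-5p 174 to 482, miR-338-3p, abundant in glia, 860 to 2204 and miR-128-3p, which muscle also expresses, 20863 to 42318. The markers of skin stayed under 100 reads each, while those of nerve differed by name.

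Endothelial, smooth muscle, blood and fibroblast microRNAs were present at higher levels. The miR-126 list of endothelium held 0.851% ± 0.0985 of the reads (SD, n = 4), and miR-143 with miR-145, of smooth muscle, 2.03% ± 0.362. The fibroblast list held 1.24% ± 0.517, the red-cell list 0.300% ± 0.169 and the myeloid list 0.0342% ± 0.00930. In such bulk tissue, fewer cells of a type and less RNA per cell cannot be told apart.

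Libraries of animals that shared a tumor type were not closer throughout than those of animals that did not. Over the 387 microRNAs with a normalised count of at least 10 in at least 2 of the 4 libraries, log2(normalised count + 1) correlated between pairs of animals at 0.971 to 0.984 (Pearson's r across microRNAs, which are not independent replicates). The median SD within a pair was 0.30 on the log2 scale for the granuloma-bearing animals Sp600 and Sp976 and 0.27 for the fibrosarcoma-bearing animals Sp2240 and Sp2230. For the 4 pairs of animals with different tumors it ran from 0.24 to 0.37.

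The root mean square difference in log2 was smallest between Sp2240 and Sp2230, at 0.75, and nearly as small between Sp600 and Sp2240, at 0.77, which bore different tumors. It was largest between Sp976 and Sp2230, at 0.99. At the injected side (IS), where the tumors grew, the same 2 pairs of animals lay farther apart, with a median SD of 0.43 between the granulomas and 0.65 between the fibrosarcomas. At the UIS, 78 of the 387 microRNAs differed more than 2-fold between Sp600 and Sp976 and 69 between Sp2240 and Sp2230, against 126 and 172 at the IS. Among UIS pairs with different tumors, the number was 44 for Sp600 with Sp2240 and 70 for Sp600 with Sp2230. It was 77 for Sp976 with Sp2240 and 86 for Sp976 with Sp2230. The 387 were chosen on the UIS libraries alone, so some were near 0 in the tumors. Among those with a pair mean of at least 100, the UIS counts were 35 of 234 and 24 of 231. The IS counts were 81 of 251 and 86 of 227. The IS libraries were shallower, with 3573253 and 3534623 reads for the granulomas and 2034574 and 7991923 for the fibrosarcomas, and the part of depth in this difference was not tested.

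The spread depended on the level. The median SD of log2 over the 4 animals was 0.55 for the 155 microRNAs with a mean normalised count under 100, 0.38 for 114 between 100 and 1000, 0.33 for 58 between 1000 and 10000, and 0.23 for 60 above that. Among the 232 microRNAs with a mean of at least 100, the highest animal exceeded the lowest by a median of 1.61-fold. For 89 of them the ratio was at most 1.5, for 69 (29.7%) it was over 2, and for 15 it was over 4.

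By the SD of log2 normalised counts, the 10 steadiest of these 232 microRNAs had mean normalised counts from 109.6 to 106948. MiR-133a-3p, steadiest of the leading microRNAs by share of reads, was not among them on this scale. MiR-30c-1-3p, the minor arm of a miR-30 hairpin, was steadiest, with normalised counts of 249, 252, 258 and 269.6 in animals Sp600, Sp976, Sp2240 and Sp2230. MiR-331-5p was next, with 151.6, 152, 139.98 and 142. MiR-186-5p came after it at a far higher level, with 21359.8, 22328, 20878 and 23523. MiR-16-5p, which restrains cell-cycle genes, ranged from 99766 to 114622 and its partner miR-15a-5p from 4202 to 4917. MiR-151-5p, miR-125b-5p, miR-191-3p, miR-361-3p and miR-187-3p completed the set, and none of the 10 differed more than 1.19-fold between animals. The labels name 4 animals, each counted as a separate sample.

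This comparison asks whether muscle away from the tumor differs with the kind of tumor the animal carries. No microRNA passed the test: with limma, 0 of 387 had a Benjamini-Hochberg adjusted p under 0.05, a share of 0%, and the smallest adjusted p was 0.533. At an unadjusted p under 0.05 there were 24, of which 10 (2.58%) were higher and 14 (3.62%) lower in the fibrosarcoma-bearing animals. EdgeR's quasi-likelihood test on the recovered reads also called 0, with 32 at an unadjusted p under 0.05, and DESeq2 called 2, with 34. Without animal Sp600 limma called 16 and without animal Sp976 it called 7, each time against a single granuloma-bearing animal, while without Sp2240 or Sp2230 it called 0. The samples of each group came from separate animals, and the p-values measure the spread between these 4 only.

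With 2 animals a group the precision was limited. The median standard error of a log2 difference was 0.42, and the median 95% interval reached 1.01 to either side, or 2.02-fold. For 91 microRNAs (23.5%) the whole interval lay within 2-fold, of which 47 were among the 60 with a mean normalised count above 10000. Differences smaller than these intervals were not detectable.

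Group separation without a test was common. In 65 of 387 microRNAs (16.8%) both fibrosarcoma-bearing animals lay above both granuloma-bearing ones, and in 89 (23%) both lay below. In the order of months since injection, Sp600, Sp976, Sp2240 and Sp2230, a strict rise was seen in 23 (5.94%) and a strict fall in 22 (5.68%). These shares are the background against which the members of each list below are to be read.

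**Figure D2:**
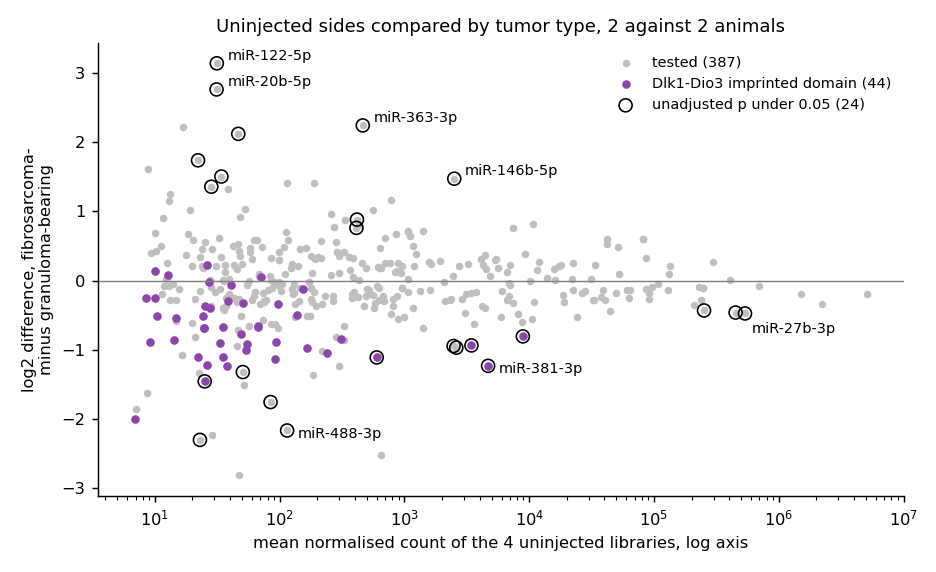
Log2 difference between the uninjected sides of the 2 fibrosarcoma-bearing and the 2 granuloma-bearing animals (vertical axis) against the mean normalised count (log axis) for 387 microRNAs; purple points are the 44 tested names of the Dlk1-Dio3 imprinted domain and circles mark the 24 with an unadjusted p under 0.05. No microRNA had an adjusted p under 0.05, and 40 of the 44 purple points lie below 0.

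The smallest p belonged to miR-122-5p, the main microRNA of hepatocytes, which was barely present. It had normalised counts of 4.25, 6.35, 36.6 and 78.2 in animals Sp600, Sp976, Sp2240 and Sp2230, from 3, 5, 34 and 65 reads. The log2 difference was 3.14 ± 0.63 (SE; limma, adjusted p = 0.533), and DESeq2 gave it an adjusted p of 0.0282. The reads pooled over the 2 animals of each group were 99 against 8. Scaled by the pooled size factors, their ratio was 10.5. The exact 95% counting interval of 5.13 to 24.99 does not include the difference between animals. The other liver-enriched microRNAs of the list, miR-192-5p and miR-194-5p, did not separate the groups, with miR-192-5p at 1742, 3501, 2901 and 2832.

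MiR-363-3p, of the miR-25, miR-92 and miR-363 family shown above, had normalised counts of 113, 196, 459.8 and 1086. The groups did not overlap, and the animals stood in the order of months since injection. The log2 difference was 2.24 with a 95% interval of 0.97 to 3.50 (limma, adjusted p = 0.533), and DESeq2 called it with an adjusted p of 0.00200. Its neighbour miR-20b-5p stood in the same order at 4.25, 10.2, 33.4 and 77.0, or 3, 8, 31 and 64 reads, with a log2 difference of 2.76 ± 0.69 (SE; limma, adjusted p = 0.533).

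The relatives of these microRNAs at other loci did not separate the groups in that way. MiR-92a-3p, which can come from Mir92-1 or from Mir92-2 beside Mir363, had 29859.5, 32599, 31616 and 41776. MiR-25-3p had 15019.7, 17548, 14665 and 24673. MiR-20a-5p, which resembles miR-20b-5p closely enough for reads to be split between them, had 778, 529, 499 and 529.6. Among the other products of the X cluster, miR-106a-5p had at most 1 read in any animal and the arms of miR-18b at most 6. MiR-19b-3p, whose reads the mouse names do not assign to one of its genes, had 822, 912, 964 and 398, and was lowest in Sp2230, where miR-363-3p and miR-20b-5p were highest. Animal Sp2230, the highest for both miR-363-3p and miR-20b-5p, was also the only male and the animal with the most red-cell microRNA, miR-363-3p itself being one of the 4 red-cell names. The part of sex and of blood in these values was not tested.

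Another 4 of the 10 smallest p-values belonged to microRNAs that were lower in both fibrosarcoma-bearing animals. MiR-672-5p, made from an intron of Nexmif on the X chromosome, had 164, 99.1, 40.9 and 33.7. MiR-488-3p, from an intron of the neuronal gene Astn1, had 234, 135, 68.9 and 21.7, a strict fall with a log2 difference of -2.16 (95% interval -3.69 to -0.64). MiR-135a-5p had 3768, 2780.1, 1743 and 1620.1. MiR-27b-3p, an abundant microRNA linked to muscle differentiation, had 570732, 679758, 448662 and 447261, a log2 difference of -0.48 ± 0.15 (SE), which was the smallest effect among the 10.

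Of the others, miR-146b-5p, which is induced by inflammatory signalling and dampens it, had 1963, 837, 2933 and 4302, so both fibrosarcoma-bearing animals lay above the others by a mean factor of 2.58. MiR-1843b-3p had 12.8, 20.3, 99.1 and 54.2. MiR-381-3p had 4735, 8569, 2876 and 2556, and it is taken up below with its domain. In limma, miR-672-5p and miR-1843b-3p had an adjusted p of 0.533 and the other 5 of 0.633.

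**Figure D3:**
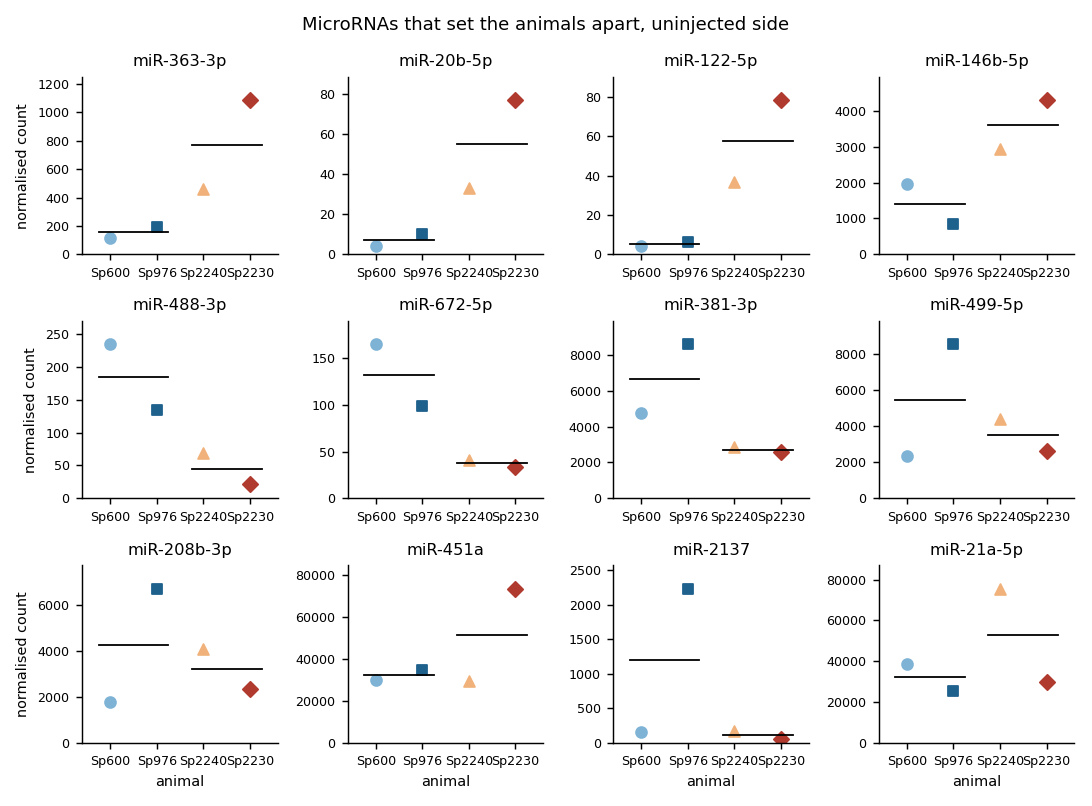
Normalised counts (linear axes starting at 0) of 12 microRNAs in the uninjected side of each animal, in the order of months since injection; points are libraries and lines are the means of the 2 animals of a group. MiR-363-3p, miR-20b-5p and miR-122-5p stand higher with each later animal, miR-488-3p and miR-672-5p lower, while miR-499-5p, miR-208b-3p and miR-2137 are high in animal Sp976 and miR-451a in animal Sp2230.

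No member of any of the 24 lists passed the adjusted test, and the medians of the lists are read beside the median difference of all 387 microRNAs, which was -0.10 on the log2 scale. Of the 23 lists with a tested name, the median difference kept its sign without any 1 animal in 6. These were the fibroblast, red-cell, miR-29, endocrine and Dlk1-Dio3 lists and the set the study drew. In 17 it turned with the loss of at least 1 animal. In the fibroblast list 5 of 6 names lay above in both fibrosarcoma-bearing animals, and in the miR-29 list 4 of 7 lay below. Leaving out an animal therefore could not turn the sign of these 2 medians. The endocrine list has a single tested name. The 11 tested muscle names had a median difference of -0.14, with 1 name above and 1 below in both fibrosarcoma-bearing animals, and the 3 tested names of regenerating muscle, led by miR-206-3p and miR-133b-3p, had 0.03. MiR-206-3p, which rises in satellite cells and regenerating fibres, had 19192, 21872, 22845 and 26058 in animals Sp600, Sp976, Sp2240 and Sp2230. The 13 names of muscle metabolism had -0.11, the 9 tested let-7 names 0.04, the 7 tested names of the miR-15 and miR-16 family, which restrains the cell cycle, 0.06, and the 5 smooth muscle names 0.05. MiR-143-3p of that list lay above in both fibrosarcoma-bearing animals, at 266501, 269535, 314651 and 332205, while its partner miR-145a-5p lay below, at 7910.2, 6835, 6545 and 6096. As shares of reads miR-143-3p still lay above in both. The groups overlapped in miR-145a-5p, at 0.0483%, 0.0435%, 0.0466% and 0.0430%.

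The fibroblast list stood higher: 5 of its 6 names, of which a pair had identical values, lay above in both fibrosarcoma-bearing animals, against 16.8% of all microRNAs tested, and its median difference was 0.73, which became 0.30 without Sp2240, 0.36 without Sp976, 1.05 without Sp600 and 1.06 without Sp2230. MiR-199a-5p had 8946, 6329, 16868 and 10394, with a log2 difference of 0.82 (95% interval -0.02 to 1.65; limma, adjusted p = 0.633). MiR-199b-5p, from another locus, had 7426, 3597, 12905 and 5954. MiR-214-3p, from the transcript of a miR-199a gene, had 1049, 601, 1544 and 1081. In all 3 the highest was Sp2240 and the lowest Sp976, while Sp600 and Sp2230 were near each other: Sp2230 lay slightly above in miR-199a-5p and miR-214-3p and below in miR-199b-5p.

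The miR-29 family, which targets collagen messages, stood lower: 4 of its 7 names lay below in both fibrosarcoma-bearing animals, against 23% of all tested, and the median difference was -0.63, or -0.40 without Sp976. MiR-29b-3p had 2821, 6221, 2937 and 2507, and miR-29a-3p had 39253, 63514, 39952 and 33760.1. Animal Sp976 alone stood out in both, and the other granuloma-bearing animal lay among the fibrosarcoma-bearing ones. Over the 7 names, Sp976 was highest for 4 (background 25.8%) and Sp600 for 3 (31.3%). Neither was lowest for any, a count for which the background was not computed.

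Of the 8 tested inflammation names, 2 lay above in both fibrosarcoma-bearing animals and the median difference was 0.30, which turned to -0.02 without Sp2240 and was 0.58 without Sp600. MiR-21a-5p, induced in injury and tumors, had 38629.9, 25459, 75633 and 29815, so animal Sp2240 was high and animal Sp2230 was not. MiR-155-5p, of activated immune cells, had 932, 368, 601 and 516. The 4 tested myeloid names had a median difference of 0.19, which was 0.91 without Sp600 and -0.75 without Sp976, with none separated by group, and miR-223-3p had 1008, 285, 794 and 465. MiR-142a-5p, found in all leukocytes, had 4291, 3399, 3352 and 5909, and its 3p arm 227, 58.4, 162 and 109.5. Animals of both groups were thus interleaved in these leukocyte microRNAs. The 5 tested lymphocyte names had 0.27, of which miR-150-5p, of mature lymphocytes, had 8799, 5644, 7932 and 5698. The 2 tested endothelial names had -0.04, with miR-126a-3p at 32099.9, 29459, 37648 and 25819. The 2 hypoxia names had 0.09, and miR-210-3p, the main hypoxia-induced microRNA, had 795, 583, 533 and 589.

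The remaining lists were small or heterogeneous. The 5 tested names of the p53-induced list had a median difference of -0.13, of which miR-34a-5p had 499, 541, 549 and 413. Only miR-34c-5p of that list separated the groups, at 15.6, 11.4, 5.38 and 2.41, from 11, 9, 5 and 2 reads. The 6 tested neural names had 0.10, the 4 epithelial names -0.13, the 3 liver names 0.26, and the single endocrine name 0.58. The 15 tested names of the miR-17-92 cluster and its paralogs had 0.22, with 3 above and 1 below in both fibrosarcoma-bearing animals, and -0.15 without Sp2230. Of the 4 microRNAs that the study drew beside Foxo1 and Cdkn1a, chosen on libraries of this series and therefore no independent evidence, 3 were tested, with a median of 0.18. MiR-182-5p of that set had 203, 611, 167 and 589, and miR-96-5p of the same cluster had at most 5 reads, while miR-296-5p had 116, 112, 154 and 118.

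The microRNAs of the Dlk1-Dio3 imprinted domain, a large maternally expressed cluster on mouse chromosome 12 that is active in growing and regenerating muscle, had lower means in the fibrosarcoma-bearing animals for most of their names. Of the 44 tested names, 40 (90.9%) had a lower mean in those animals, against 56.6% of all microRNAs tested, and 18 lay below in both animals against a background of 23%, while none lay above in both. The median difference was -0.69 on the log2 scale, against -0.02 over the 343 names outside the domain. In all, 5 names had an unadjusted p under 0.05, all of them lower, and none passed the adjusted test. The microRNAs of the domain are made from shared transcripts, so they are not independent of each other.

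MiR-127-3p, the most abundant, had 10264, 12304.5, 7559 and 5459.6 in animals Sp600, Sp976, Sp2240 and Sp2230. MiR-381-3p had the values given above, with a log2 difference of -1.23 (95% interval -2.11 to -0.35; limma, adjusted p = 0.633), and miR-411-5p had 3993, 4941, 3114 and 1728. MiR-410-3p, at the far end of the cluster, had 519, 1161, 352 and 366. In these 4 the groups did not overlap.

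The difference was carried mostly by an animal of each group. Animal Sp976 was the highest of the 4 for 31 of the 44 names, against 25.8% of all microRNAs tested. Animal Sp2230 was the lowest for 29, but how often it was lowest over all microRNAs tested was not computed. Animal Sp600 was highest for 7 (background 31.3%), animal Sp2240 for 5 (19.9%) and animal Sp2230 for 1 (23%). Relative to the mean of the 4 animals, the median log2 departure was 0.16 in Sp600, 0.70 in Sp976, 0.01 in Sp2240 and -0.57 in Sp2230. Without animal Sp2230 the median difference was -0.24, against -0.08 over all tested, with 34 of 44 (77.3%) lower against 54.8%. Without animal Sp976 the median of the domain was -0.48, against -0.16 over all tested, with 38 (86.4%) lower against 60.2%. The median of the domain was -0.95 without Sp600 and -1.04 without Sp2240, against -0.02 and -0.07 over all tested. Scaling reads to the library totals moved the median of all microRNAs from -0.10 to 0.08. On that scale 37 of 44 (84.1%) were still lower, against 40.8% of all tested, with a median of -0.50.

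**Figure D4:**
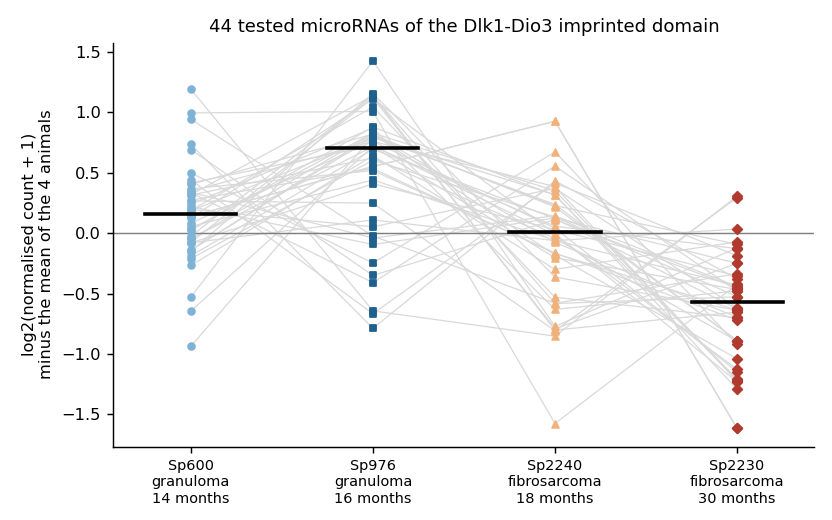
Departure of each of the 44 tested microRNAs of the Dlk1-Dio3 domain from its mean over the 4 animals (log2 of normalised count + 1); points are microRNAs, grey lines join the same microRNA and black bars are medians. The medians are 0.16 and 0.70 in the granuloma-bearing animals Sp600 and Sp976 and 0.01 and -0.57 in the fibrosarcoma-bearing animals Sp2240 and Sp2230, and the clouds of points overlap.

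Each animal had its own departures, and these crossed the tumor types. Among the 232 microRNAs with a mean normalised count of at least 100, animal Sp976 lay more than 2-fold from the median of the other 3 in 28 (12.1%), animal Sp2230 in 17 (7.33%), animal Sp2240 in 15 (6.47%) and animal Sp600 in 11 (4.74%).

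Animal Sp976 was highest for the slow-fibre microRNAs. MiR-499-5p had 2341, 8505, 4361 and 2615 in animals Sp600, Sp976, Sp2240 and Sp2230, and miR-208b-3p had 1759, 6733, 4089 and 2322. The 2 microRNAs, whose genes lie on different chromosomes, kept a nearly fixed ratio of 1.33, 1.26, 1.07 and 1.13 in the 4 animals while their level varied 3.63-fold and 3.83-fold. The list summed to 3.08 times the median of the other animals in Sp976, and its share of reads was 0.0252%, 0.0974%, 0.0604% and 0.0350% in the 4 animals. Both extremes were granuloma-bearing animals, Sp600 and Sp976, and the fibrosarcoma-bearing ones lay between them, with log2 differences of -0.40 for miR-499-5p and -0.16 for miR-208b-3p. Which neck muscle was taken, and its fibre type, is not given.

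Animal Sp976 also held the largest single departure, miR-2137, with 2236 against 147, 176 and 56.6 in animals Sp600, Sp2240 and Sp2230. MiR-29b-1-5p, the minor arm of a miR-29 hairpin, had 427 in it against 130, 98.0 and 85.5. It was lowest for miR-146b-5p and for miR-222-3p, a microRNA of growth and of vessel cells, with 266 against 898, 1103 and 503. MiR-223-3p and miR-155-5p were lowest in it too, at the values given above, so Sp976 had the least of several leukocyte microRNAs. Others differed: miR-142a-5p, the most abundant myeloid name, was lowest in Sp2240, at 3352 against 3399 in Sp976. MiR-146a-5p, of the inflammation list, was highest in Sp976, at 1478 against 825, 1005 and 968 in Sp600, Sp2240 and Sp2230.

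Animal Sp2230 was highest for the red-cell microRNAs. MiR-451a, the most abundant erythrocyte microRNA, had 30143, 34781, 29549 and 73633, and the other 3 animals lay close together. MiR-144-3p, which is cut from the same transcript 99 bases away in the mouse genome, had 351, 546, 611 and 1592, and miR-144-5p had 679, 865, 859 and 1856. The red-cell list summed to 2.48 times the median of the other animals. Its 4 tested names, of which miR-363-3p is one, had the largest median difference of any list, 0.94, with 2 above in both fibrosarcoma-bearing animals, namely miR-363-3p and miR-144-3p, and 0.32 without Sp2230. MiR-455-3p was also high in Sp2230, with 459.8 against 90.7, 83.9 and 117, while miR-1247-5p was low, with 67.4 against 227, 316 and 258.

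Animal Sp2240 was highest for microRNAs of fibroblasts and of injury. Besides miR-21a-5p and the miR-199 and miR-214 arms, miR-224-5p had 575 in it against 217, 99.1 and 143, and miR-452-5p, its neighbour in the same gene, had 248 against 85.0, 36.9 and 90.3. The inflammation list, most of whose reads are miR-21a-5p, summed to 2.25 times the median of the other animals and the fibroblast list to 1.64 times.

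Animal Sp600 had the fewest departures. It was highest for miR-488-3p and for miR-31-5p, a microRNA of satellite cells and epithelia, with 692 against 201, 230.4 and 610.2, and for miR-466i-5p, with 582 against 241, 111 and 382. It was lowest for miR-363-3p and among the lowest for miR-182-5p and miR-183-5p, 2 microRNAs of a single cluster. MiR-183-5p had 77.9, 249, 81.8 and 366, so this cluster was high in Sp976 and Sp2230, one animal of each group, and low in Sp600 and Sp2240.

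**Figure D5:**
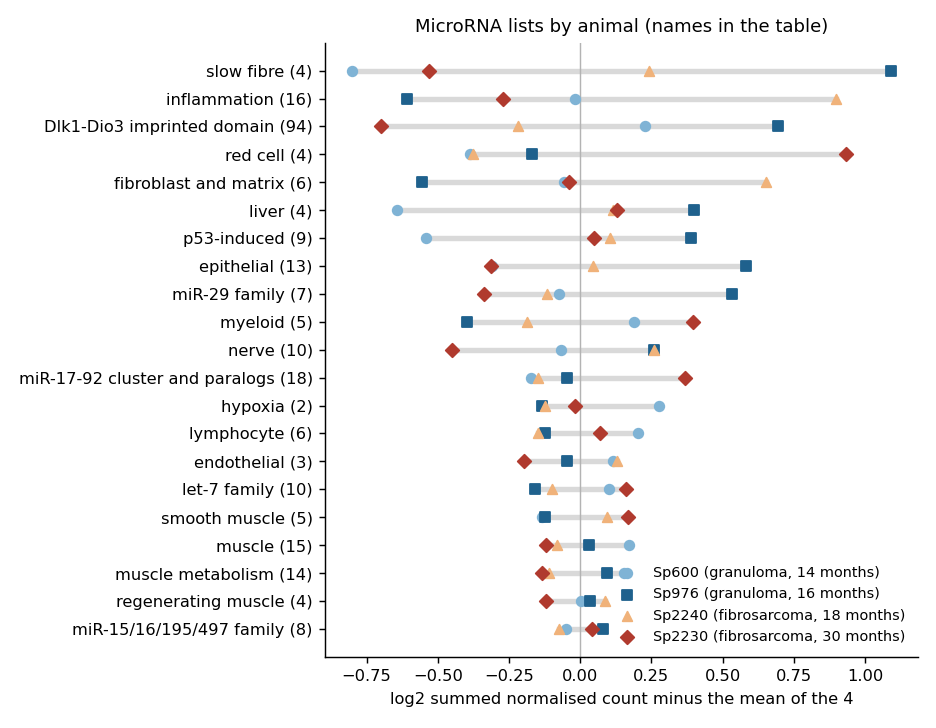
Summed normalised count of each list (log2, minus the mean of the 4 animals) in the uninjected side of each animal, with the number of names in the table in brackets; points are libraries and grey bars join the lowest and highest. The muscle, let-7 and miR-15 family lists lie close together, while the slow-fibre, inflammation, imprinted-domain and red-cell lists spread most, with Sp976, Sp2240, Sp976 and Sp2230 the highest animals.

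For a few microRNAs, given as examples, the IS library of the same animal shows whether its standing at the UIS recurred. For miR-363-3p the IS held 23.7, 17.7, 521 and 3.27 normalised counts in animals Sp600, Sp976, Sp2240 and Sp2230, so animal Sp2230, highest at the UIS, was lowest at the IS. MiR-451a had 35767, 6609, 34052 and 10654 at the IS, where again Sp2230 was not highest. MiR-122-5p, highest in Sp2230 at the UIS, had 8.74, 1.27, 2.17 and 0 at the IS. MiR-488-3p, highest in Sp600 at the UIS, had 2.50, 0, 30.4 and 4.36 at the IS, highest in Sp2240. MiR-672-5p was highest in Sp600 at both sides, with 338, 2.53, 4.34 and 2.18 at the IS. MiR-381-3p had 20201, 6209.9, 723 and 262 at the IS, lower in both fibrosarcomas than in both granulomas, as at the UIS. MiR-182-5p had 1140, 27525, 336 and 1986 at the IS, and miR-183-5p had 337, 6481, 158 and 680. Both were thus higher in Sp976 and Sp2230 than in the other animals, as at the UIS. Since 1 sample is muscle and the other tumor, these values are set side by side without a test.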

How the data were processed

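Small RNA of the uninjected side of 4 *Spalax* was analysed, with the 4 injected-side libraries beside it. The authors built the libraries from total RNA with the TruSeq kit for small RNA and ran them on a shared lane, removed the adaptors, used mirDeep to map and count, and tested with DESeq2; the build and settings of this mapping are not given in the sources used here. The deposited values are a signal per microRNA name, namely reads divided by a size factor: within a tolerance of 0.01, 100% of the values were whole multiples of a step that is fixed within a library, which gave back whole reads. Names were not matched to *Spalax* sequences, so a base change in *Spalax* can lower a count.

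Groups, months and sex were taken from the sample labels. The main test was limma 3.58.1 (trend in the spread) on log2(value + 1) over the microRNAs that reached a value of 10 in 2 or more of the 4 libraries, with Benjamini-Hochberg adjustment. On the recovered reads edgeR 4.0.16 called 0 microRNAs and DESeq2 1.42.0 called 2. The share of muscle microRNAs was compared by an exact permutation test in scipy 1.17.1. R 4.3.3 and Python 3.11.15 were used, and the fits were tested on simulated data. The members and the 24 lists were chosen with earlier results of these data known. Named microRNAs are the 20 with the highest mean share, the 10 smallest p-values, for each animal the 3 farthest above and the 3 farthest below the median of the others among those with a mean value of at least 100, the 10 with the smallest SD, the leading members of each list and any called by an alternative with at most 5 calls. Others, namely relatives and neighbours of these, were added after their values were seen. Hairpins are from GENCODE M21 on GRCm38; mature sequences were not used here.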

Additional observations from a re-analysis of the deposited data

How the results depend on the processing

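The count of 0 calls held under every alternative but 3: DESeq2 called 2, and leaving out each animal in turn gave 0 to 16, with 16 without animal Sp600, 7 without animal Sp976 and 0 without animal Sp2240 or Sp2230. These fits leave an animal alone in its group and assume that it varies like the others. The number with an unadjusted p under 0.05, 24, became 5 in a fit of all 8 *Spalax* libraries, 5 in that fit with the animal as a replicate block, 14 with a value of at least 100 required and 14 to 69 with an animal left out. The replicate block pairs the sides of an animal, whose deviations from their group means correlated at 0.0933 in granuloma and 0.00405 in fibrosarcoma, and it changed no call. Scaling to library totals moved the share of the unadjusted differences that were higher in the fibrosarcoma-bearing animals from 41.7% of 24 to 86.7% of 30. It was 58.6% of 29 with median-of-ratios factors of the 4 libraries and also with factors computed without the muscle microRNAs, 59.4% of 32 with edgeR, 55.9% of 34 with DESeq2, 28.6% of 14 with the stricter filter and 60% of 5 in both fits of 8 libraries. The cause of these shifts was not tested. The difference in the share of muscle microRNAs ran from -1.45 to 0.581 percentage points with an animal left out. Alternatives were followed for 14 microRNAs, namely those with the smallest p-values in the main test, miR-127-3p, miR-411-5p, miR-410-3p and miR-144-3p. Of 246 estimates, none reversed. The groups did not overlap in any of the 14, so leaving out an animal could not reverse the sign. Fits of 8 libraries, and those changing only the filter or trend, returned the main difference unchanged. These settings could not test the direction, which the other scalings, edgeR and DESeq2 kept. Estimates past the threshold came from DESeq2 or lacked a granuloma-bearing animal. At 11557482 reads or more, counting error is small beside the spread between animals except for microRNAs of a few reads, such as miR-122-5p.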

Other observations

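Most hairpins kept their leading arm in every animal. Of 103 hairpins with both arms present in all 4 animals, at a mean normalised count of at least 10 for each arm, 101 had the same leading arm in every animal, the 5p arm in 55 and the 3p arm in 46. The SD of the log2 ratio of 5p to 3p over the 4 animals had a median of 0.32. The 2 exceptions were miR-582, whose arms were nearly equal, with log2 ratios of -0.15, 0.01, 0.23 and -0.13 in animals Sp600, Sp976, Sp2240 and Sp2230, and miR-335, with -0.10, 1.08, 0.82 and 0.64.

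In 5 hairpins the log2 ratio ranged over more than 2 between animals. The widest was miR-455, a hairpin inside a cartilage collagen gene, at -1.61, -1.96, -1.41 and -4.99, so its 3p arm exceeded the 5p arm by far more in animal Sp2230 than in the others. Its 5p arm had 29.8, 21.6, 44.1 and 14.4 normalised counts, while the 3p arm had 90.7, 83.9, 117 and 459.8. MiR-1247 had ratios of 3.51, 2.13, 3.74 and 4.81, and miR-1843b, of which the 3p arm separated the groups, 5.29, 4.83, 2.88 and 3.82.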
